A study of Homo sapiens with 4 samples.

Results

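Accessible chromatin was described at 38 amino acid transporter genes among the 20007 protein-coding genes of the annotation. The genes were those of the solute carrier families SLC1 (7 genes), SLC7 (12), SLC38 (11), SLC36 (4) and SLC43 (3), together with the taurine carrier SLC6A6. The cystine exchanger genes SLC7A11 and SLC3A2 were left out. A peak belonged to a gene when it overlapped the gene body or the 10 kb on either side (GENCODE, hg38). The 4 libraries were made by ATAC-seq with the Omni protocol from 50000 cells each of HepG2, a human liver cancer line. HepG2 cells of wild-type genotype were either untreated (2 control libraries) or given 5 µM tazemetostat, an inhibitor of the histone methyltransferase EZH2, for 48 h (2 libraries). Nothing in the labels states that the replicates came from separate cultures, and a single line was used. A carrier-solvent control for the untreated cells is not named in the labels. The methods describe a DNase I pretreatment for the tazemetostat-treated cells and do not say whether the controls received it.

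Amino acid transporters move amino acids across the plasma membrane and, for some SLC36 and SLC38 members, across the lysosomal membrane. The SLC7 family holds carriers of cationic amino acids and the light chains of heteromeric exchangers. SLC1 holds the glutamate carriers and the neutral exchangers ASCT1 and ASCT2, and SLC38 the sodium-coupled glutamine and alanine carriers. Hepatocytes take up glutamine and alanine through SLC38 members, and tumour cells often carry much SLC1A5 and SLC7A5. EZH2 methylates histone H3 at lysine 27 in silenced chromatin. An open transposase-accessible site marks where regulatory DNA is exposed and is not a measure of transcription.

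The libraries differed as wholes. Mapped tags ran from 17191428 to 26564400 and overlapped between the groups, whereas the control lists held 26133 and 34768 peaks and the tazemetostat lists 55313 and 54157. The share of tags lying in peaks was 4.32% and 5.69% against 11.51% and 9.81%. Both differences run the same way as the member results that follow, and their part in those results was not tested. Of 10 hepatocyte marker promoters, 7 carried a peak in every library, while those of ALB, AFP and FGB had none in any. Promoters of 5 blood and 5 endothelial markers had no peak, and of 5 fibroblast markers only COL1A2 had one, in tazemetostat replicate 1.

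Sequences are given first for sites and regions chosen after their values were seen. Each runs 5′ to 3′ on the strand of its gene and was read from the hg38 genome. The first group holds promoter regions with the E-box CACGTG, the letters bound by MYC, USF and the TFE factors of lysosomal genes, in capitals. These regions were picked, and the promoter regions of SLC7A2 and SLC38A5, which also hold the E-box, are not printed. The E-box of SLC38A9 lies outside the central 200 bp of its region, where motifs in the member regions were counted. SLC36A1, SLC38A7 and SLC38A9 encode lysosomal carriers and had promoter peaks in all libraries, and SLC43A1 encodes the leucine carrier LAT3 with a promoter peak under tazemetostat alone. Sites inside annotated exons are shown with a few flanking bases.
SLC36A1, chr5:151447483-151447602, plus strand: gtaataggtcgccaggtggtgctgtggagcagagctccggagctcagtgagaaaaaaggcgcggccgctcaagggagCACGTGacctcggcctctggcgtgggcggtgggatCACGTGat
SLC38A7, chr16:58684740-58684767, minus strand: tgatgcatgctCACGTGtctccgcagcc
SLC38A9, chr5:55712618-55712645, minus strand: cagcgttttctCACGTGgcctccggggc
SLC43A1, chr11:57515798-57515825, minus strand: agcgggcgagtCACGTGcgcgtgaaact
The second group holds the amino acid response element TGATGNAA, which ATF4 binds when amino acids run short. It is in capitals on either strand at the promoters of SLC7A1 and SLC1A4. Both sites lie outside the central 200 bp of their regions.
SLC7A1, chr13:29595664-29595691, minus strand: ggcgcactgcTGATGAAAcctggcgccg
SLC1A4, chr2:64989382-64989409, plus strand: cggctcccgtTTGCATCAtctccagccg
The third group holds regions whose calls differed between the groups, and the SLC38A11 region, called in every library, whose deposited tag counts differed. They are the upstream region of SLC38A3 and an intron region of SLC38A4 called under tazemetostat alone, the intron region of SLC38A11 with the largest fitted rise, and the region of SLC6A6 called in the controls alone, whose E-box is in capitals.
SLC38A3, chr3:50201895-50202044, plus strand: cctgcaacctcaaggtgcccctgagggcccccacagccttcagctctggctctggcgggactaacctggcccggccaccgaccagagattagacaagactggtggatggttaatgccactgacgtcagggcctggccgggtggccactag
SLC38A4, chr12:46814281-46814430, minus strand: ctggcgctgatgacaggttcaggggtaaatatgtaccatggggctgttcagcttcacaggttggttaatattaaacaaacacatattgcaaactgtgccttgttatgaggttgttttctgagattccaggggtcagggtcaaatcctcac
SLC38A11, chr2:164938073-164938222, minus strand: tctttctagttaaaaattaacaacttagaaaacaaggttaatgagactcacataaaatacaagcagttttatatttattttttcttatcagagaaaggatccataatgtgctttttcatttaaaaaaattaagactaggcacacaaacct
SLC6A6, chr3:14403332-14403481, plus strand: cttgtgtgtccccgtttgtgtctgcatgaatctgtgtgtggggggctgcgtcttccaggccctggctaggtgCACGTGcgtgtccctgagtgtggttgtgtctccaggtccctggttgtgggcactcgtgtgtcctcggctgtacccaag

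More peaks were called around the transporter genes under tazemetostat. There were 52 and 74 peaks in the control libraries (63.0 ± 15.6, SD, n = 2) and 123 and 119 in the tazemetostat libraries (121 ± 2.83, SD, n = 2). The groups did not overlap, and the ratio of the means was 1.92. A two-sided exact permutation test returned p = 0.3333, below which a comparison of 2 with 2 libraries cannot go. The difference of the means, 58 peaks, was 13.5 where all libraries supplied equally many peaks and also 13.5 with a local fold of at least 8. As a share of all peaks in the library the windows held 0.199% and 0.213% in the controls and 0.222% and 0.220% under tazemetostat. The share of the library differed by a ratio of 1.07, so the gain in member peaks was close to that of the whole library. The median normalised tag count per kilobase of peak (tags per 10 M mapped tags and kb) was 37.8 and 33.7 in the controls and 40.3 and 33.0 under tazemetostat, which overlapped (exact permutation p = 1.0, two-sided).

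By family, the SLC1 windows held 11 and 14 control peaks and 22 and 19 tazemetostat peaks. SLC7 windows held 17 and 26 against 39 and 37, and SLC38 windows 14 and 20 against 36 and 39. The proton-coupled SLC36 carriers had 1 and 4 peaks against 5 and 7, and the SLC43 carriers 5 and 5 against 14 and 13. In all of these families every tazemetostat library lay above both controls. The same held for the whole lists, with 26133 and 34768 peaks against 55313 and 54157. At SLC6A6 the groups overlapped, with 4 and 5 peaks against 7 and 4.

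**Figure D1:**
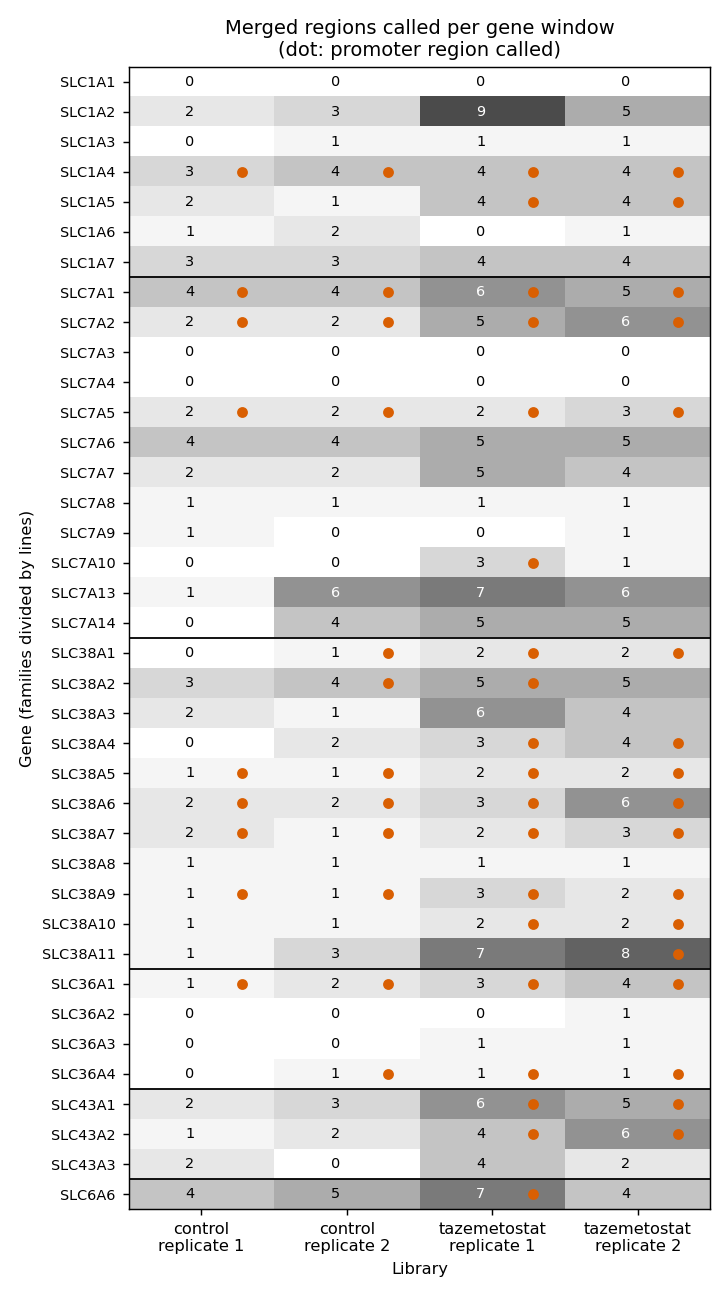
Number of merged regions called in each library (columns) in the window of each of the 38 genes (rows), with darker cells for more regions and a dot where the promoter region was called. SLC1A1, SLC7A3 and SLC7A4 have none in any library, and 9 genes carry a dot in every column.

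Peaks of the 4 libraries that shared at least 1 bp were joined, which gave 169 regions in the member windows out of 80551 in the genome. Of these, 33 were called in every library (shared, 19.5%, against 23.7% of the 53365 regions in windows of protein-coding genes). A further 31 were called in both tazemetostat libraries and no control (tazemetostat-only, 18.3%, against 13.3%), and 1 in both controls and no tazemetostat library (control-only, against 0.401%). There were 28 regions called in both tazemetostat libraries and 1 control, a pattern seen at 13.2% of all merged regions, and 1 with the reverse pattern (0.883% of all). Single-library calls made up 69 regions (46.2% of all merged regions were of that kind), 18 from controls and 51 from tazemetostat, and 6 regions had 1 library of each group.

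Members differed in how much accessible chromatin they carried. SLC1A1 (the neuronal and renal glutamate carrier), SLC7A3 (a cationic carrier) and SLC7A4 had no region. SLC7A1, the main cationic amino acid carrier of proliferating cells, had the most regions with 12, of which 9 were single-library calls. SLC6A6 had 10, SLC1A2 and SLC38A11 had 9 each, and SLC38A2 and SLC43A2 had 8 each. SLC7A13 had 7, most of them in a long upstream extension of the annotated gene rather than in its canonical transcript, and SLC43A1 also had 7. SLC1A4, SLC1A5, SLC7A2, SLC38A3 and SLC38A6 had 6 each, and SLC7A6, SLC7A7, SLC7A14, SLC38A4 and SLC43A3 had 5 each. SLC1A6, SLC1A7, SLC7A8, SLC38A7 and SLC36A1 had 4 each. SLC7A5, SLC7A10, SLC38A5 and SLC38A9 had 3 each, SLC7A9, SLC38A1, SLC38A10 and SLC36A3 had 2 each, and SLC1A3, SLC38A8, SLC36A2 and SLC36A4 had 1 each. Each region of SLC1A6, SLC7A8, SLC7A9, SLC36A2 and SLC36A3 was called in a single library. Of the 38 windows 35 held at least 1 region (86.8% of protein-coding windows did).

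Promoters were defined as 1 kb upstream to 100 bp downstream of the canonical transcript start. A promoter peak was found at 9 and 12 of the 38 genes in the controls and at 19 and 17 under tazemetostat (10.5 ± 2.12 and 18.0 ± 1.41, SD, n = 2 each), with p = 0.3333 in the two-sided exact permutation test, again its lowest possible value. The groups did not overlap. The difference of 7.5 genes was 3.5 with an equal number of peaks and 1.5 with a local fold of at least 8, where the groups no longer separated (exact permutation p = 0.6667). In percent these were 23.7, 31.6, 50.0 and 44.7, while over all protein-coding genes they were 34.2, 41.0, 52.0 and 49.0. In each library the member share lay below that of all protein-coding genes, a difference that was not tested. Promoter peaks in all libraries were seen at 9 members, and 30.6% of protein-coding genes had them. No library gave one at 18 members (44.2% of protein-coding genes). These counts rest on the canonical start. With any annotated transcript start, 16 and 18 members had a peak in the controls and 25 and 24 under tazemetostat. Among the 18, SLC1A2, SLC7A6 and SLC7A7 had a peak at another start in every library, as did SLC38A2 and SLC38A11 among the other members. The share over all protein-coding genes was not counted for any start.

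Among the 9 members with a promoter peak in every library, SLC7A5 had the highest level per length. SLC7A5, the light chain of the leucine exchanger LAT1, gave normalised tag counts per kb of 62.4 and 79.0 in the controls and 114 and 98.9 under tazemetostat, above the other 8 promoters in each library. Its promoter region was centred 1.26 kb upstream of the start and reached into the promoter from there. The local folds of this region were 5.54, 6.20, 8.34 and 9.69, controls first. By local fold it was not the highest of the 9 in any library, where the highest were 15.32, 13.75, 13.19 and 10.1. An intron region of SLC7A5 was higher per kb than its promoter, at 96.0, 111, 142 and 121, with local folds of 4.19, 5.06, 4.97 and 4.72. Next by the mean of the libraries came SLC1A4 (ASCT1, an exchanger of alanine, serine and cysteine) at 46.4 ± 10.3 and 60.5 ± 5.95 per kb and SLC38A9 (a lysosomal carrier that senses arginine) at 46.1 ± 3.37 and 56.2 ± 22.9 per kb (SD, n = 2 each, controls first). These ranges overlapped, as did those of SLC38A7, SLC7A1, SLC7A2 and SLC38A5, so their order was not resolved. SLC38A6 (25.8 ± 5.07 and 33.5 ± 4.89 per kb) and the lysosomal proton-coupled carrier SLC36A1 (24.8 ± 4.35 and 29.1 ± 2.37 per kb) had the lowest means, and their ranges overlapped each other and those of SLC38A5 and SLC7A2, so these places were not resolved either.

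The same 9 promoter regions were then followed across the libraries by their normalised tag counts (tags per 10 M mapped tags), with the limma difference on the log2(normalised tag count + 1) scale and its adjusted p over all 15383 regions with exactly 1 peak in each library. At SLC38A7, a lysosomal glutamine carrier, the values were 11.1 and 11.8 in the controls and 30.7 and 23.3 under tazemetostat, with no overlap and a difference of 1.16 ± 0.299 (SE, adjusted p = 0.0121). At SLC38A5, a system N glutamine carrier on chromosome X, they were 10.5 and 23.5 against 48.4 and 24.1, a difference of 1.07 ± 0.368 (adjusted p = 0.0296), although control replicate 2 and tazemetostat replicate 2 nearly met. Only these promoters of the 9 passed the threshold on the deposited scale. Per kb of peak neither passed (SLC38A7 0.44, adjusted p = 0.0973, and SLC38A5 0.33, adjusted p = 0.198), and those of SLC7A5 (0.59, adjusted p = 0.0295) and SLC7A2 (0.63, adjusted p = 0.0209) did, again in limma.

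SLC7A5 had 29.1 and 54.6 against 65.0 and 60.2 (a difference of 0.64, adjusted p = 0.099). SLC7A1 had 16.9 and 20.2 against 27.2 and 31.6 (0.64, adjusted p = 0.0775). SLC38A9 had 22.7 and 22.7 against 45.9 and 29.0 (0.66, adjusted p = 0.078). In these 3, and in SLC38A6, SLC7A2 and SLC36A1 that follow, both tazemetostat values lay above both controls (81.6% of tested regions over the genome). None of these passed the threshold on the deposited scale. SLC38A6, whose start is shared with TRMT5, had 14.0 and 14.3 against 28.2 and 20.7 (0.73, adjusted p = 0.0523). SLC7A2, a cationic carrier of liver and macrophages, had 14.0 and 16.0 against 30.2 and 17.7 (0.60, adjusted p = 0.11). SLC36A1 had 10.5 and 8.40 against 11.1 and 13.9 (0.37, adjusted p = 0.275). SLC1A4 had 21.5 and 28.2 against 29.2 and 16.9, so its groups overlapped, and its difference was -0.14 (adjusted p = 0.693). The SLC1A4 peak was also shorter under tazemetostat (451 and 300 bp, against 550 and 526 bp), and per kb the difference was 0.39.

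**Figure D2:**
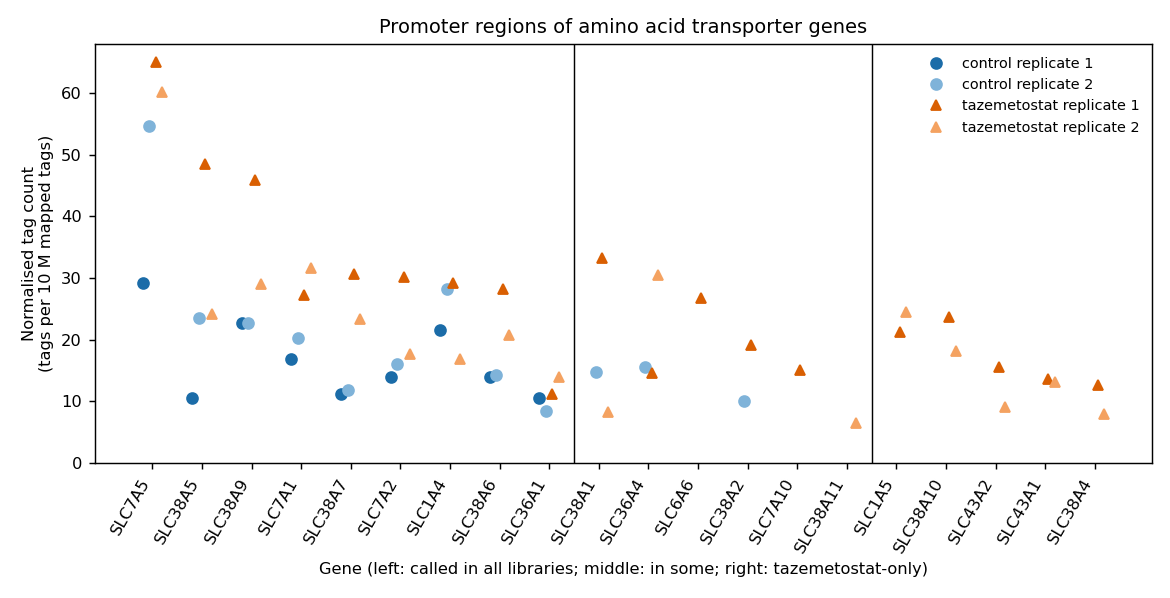
Normalised tag count (tags per 10 M mapped tags) of each called promoter region by library, with circles for controls and triangles for tazemetostat and no symbol where no peak was called. The 9 genes on the left were called in every library and the 5 on the right under tazemetostat alone.

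Tazemetostat-only promoter regions were found at 5 members, SLC1A5, SLC38A4, SLC38A10, SLC43A1 and SLC43A2 (5.61% of protein-coding genes had one). SLC1A5 encodes ASCT2, the neutral exchanger known for glutamine uptake in tumours. Its promoter region at chr19:46788430-46788921 had 21.2 and 24.5 under tazemetostat and no peak in either control. SLC38A10 had 23.7 and 18.1 in the region 50 bp upstream of its start. SLC43A1 had 13.6 and 13.2, and SLC43A2 (LAT4, a carrier of large neutral amino acids) had 15.6 and 9.03. SLC38A4, the system A carrier of liver, had 12.6 and 7.91 at 56 bp upstream of its start. The lowest normalised tag counts listed in the libraries ran from 4.89 to 6.40, so that SLC38A4 lay nearer to them than SLC1A5. When every library was cut to its 26133 highest peaks, SLC1A5 and SLC38A10 still had a tazemetostat-only promoter region and the other 3 did not. When only peaks at least 8-fold over the local 10 kb were kept, the SLC38A4 promoter alone of the 5 remained.

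The remaining promoter calls were mixed. SLC38A1 (a glutamine carrier) had 14.7 in control replicate 2 and 33.3 and 8.28 under tazemetostat, and SLC36A4 had 15.5 against 14.6 and 30.5. SLC38A2, the system A carrier induced by amino acid shortage, had 10.1 in control replicate 2 and 19.1 in tazemetostat replicate 1. The promoters of SLC7A10 (15.1) and SLC6A6 (26.7) were called in tazemetostat replicate 1 alone, and that of SLC38A11 (6.40) in replicate 2 alone.

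Tazemetostat-only regions anywhere in the window were found at 20 of the 38 genes (52.6%, against 32.5% of protein-coding genes). Transporter windows were longer, with a median of 74.6 kb against 47.5 kb, and the share was not adjusted for length. By gene bodies alone 17 members had one (22.5% of protein-coding genes). With a local fold of at least 8 there were 7 (10.8%), of which 6 were among the 20. When all libraries supplied equally many peaks there were 9 (12.4%), of which 8 were among the 20. The number of members therefore fell by more than 1.5 times under both of these peak lists.

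**Figure D3:**
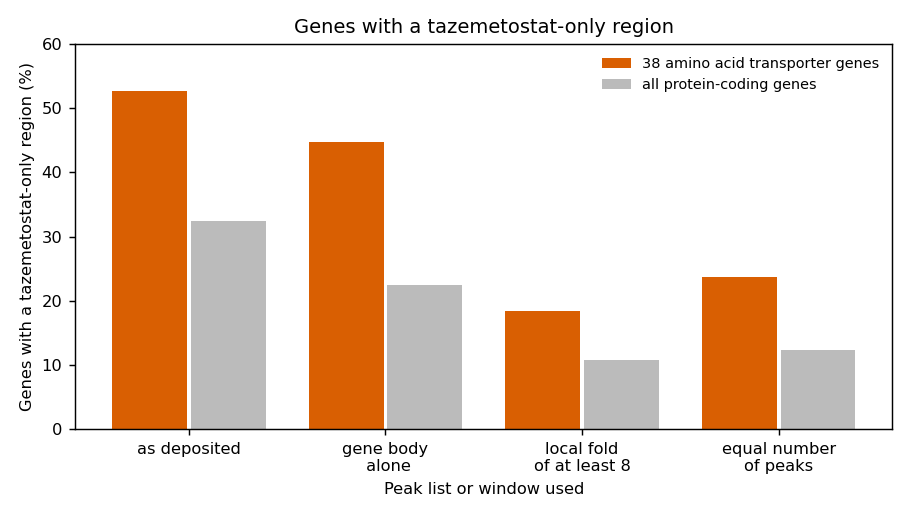
Percent of genes with at least 1 tazemetostat-only region in the window, for the 38 amino acid transporter genes and all protein-coding genes, under the deposited peak lists and 3 other settings. The member bars stand at 52.6, 44.7, 18.4 and 23.7% and the bars of all genes at 32.5, 22.5, 10.8 and 12.4%.

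The SLC38 family held 14 of the 31 tazemetostat-only regions, at 9 of its 11 genes (32.5% of protein-coding genes had one). They were 28.6% of its 49 regions, against 13.3% of regions in windows of protein-coding genes. In the other families the class held 4 of 30 regions (SLC1), 6 of 52 (SLC7), 1 of 8 (SLC36), 4 of 20 (SLC43) and 2 of 10 (SLC6A6). In the same order these lay at 2 of 7, 4 of 12, 1 of 4, 3 of 3 and 1 of 1 genes. No test of the difference between families was made, because regions of 1 gene are not replicates. SLC38A3, a system N glutamine carrier of periportal hepatocytes, had the highest values. Its region 3.30 kb upstream of the start, printed above in part, had 38.3 and 37.3, and its intron region 3.69 kb past the start had 31.7 and 28.6. Both were kept with an equal number of peaks. A neighbouring region 9.36 kb upstream of SLC38A3, inside GNAT1, was called in every library at 52.9, 63.9, 103.8 and 83.2.

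SLC38A4 had 3 tazemetostat-only regions, the promoter and 2 intron regions, and no shared region. The intron region 27.8 kb past the start had 13.1 and 15.1 with local folds of 14.0 and 12.5. The one 11.6 kb past the start had 10.6 and 12 with local folds of 34.0 and 41.4. The low surrounding signal is part of those folds, since the tag counts themselves are low. SLC38A4 is expressed mainly in liver, and its canonical transcript is short of the annotated gene at the 5′ end.

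SLC38A11 had 3 as well. Its introns carried 17.6 and 18.4 at 41.7 kb past the start and 9.57 and 7.91 at 43.4 kb, and the flank 67.9 kb past the start carried 11.1 and 13.9 with local folds of 12.4 and 13.3. In SLC38A6 the intron region 61.2 kb past the start had 15.1 and 9.41 with local folds of 48.5 and 19.7. SLC38A1 had 9.57 and 11.3 at 1.58 kb past the start, where another transcript begins. SLC38A2 had 11.6 and 10.9 at 7.31 kb past the start. SLC38A7 had 13.1 and 8.28 at 23.4 kb past the start, beyond the gene. SLC38A9 had 12.6 and 8.28 at 60.9 kb upstream of the canonical start, at the far edge of the annotated gene and inside DDX4. The SLC38A11 region with 17.6 and 18.4 was kept with an equal number of peaks. The other regions of this paragraph had values from 7.91 to 15.1. Over the 31 tazemetostat-only regions the value was the higher one in tazemetostat replicate 1 in 20.

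**Figure D4:**
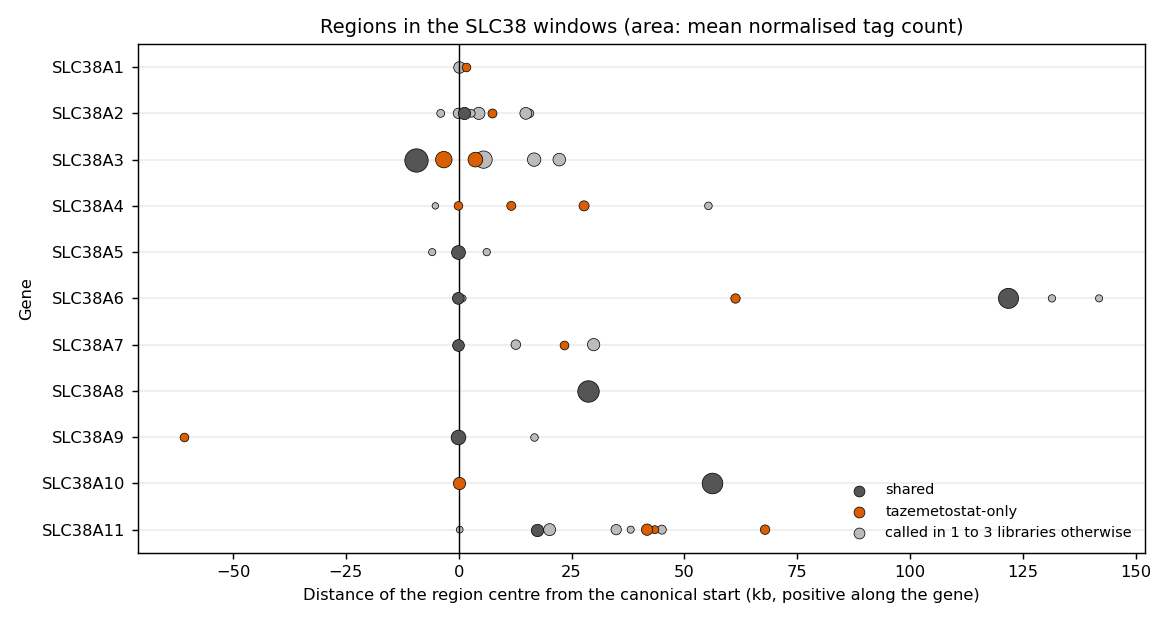
Regions in the windows of the 11 SLC38 genes by the distance of their centre from the canonical start (kb, positive along the gene), with point area for the mean normalised tag count and colour for the libraries that called them. Orange points, the tazemetostat-only regions, appear at 9 genes, and the largest of them lie at SLC38A3.

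In the SLC1 family SLC1A5 and SLC1A2 carried tazemetostat-only regions. SLC1A2, the main glutamate carrier of astrocytes, had intron regions of 16.6 and 8.28 at 115 kb and of 7.05 and 6.40 at 82.2 kb past the start. SLC1A5 had, besides its promoter, 8.57 and 12.4 at 17.4 kb past the start, beyond the gene. In SLC7, the intron regions of SLC7A7 (the light chain mutated in lysinuric protein intolerance) had 15.1 and 16.9 at 37.8 kb and 19.1 and 28.6 at 7.80 kb past the start. SLC7A10, a small neutral amino acid exchanger, had 23.7 and 15.8 at 9.61 kb upstream. SLC7A2 had 8.57 and 6.40 at 7.08 kb upstream and 7.56 and 12 at 9.71 kb past the start, and SLC7A14 had 9.07 and 14.7 at 86.3 kb past the start.

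SLC36A1 had a tazemetostat-only intron region of 19.1 and 16.2 at 4.69 kb past its start. SLC43A2 had 13.1 and 8.66 at 38.6 kb past the start, and SLC43A3, which carries purine bases, had 17.1 and 12.4 at 7.76 kb upstream. With an equal number of peaks 9 of the 31 regions kept their class, and with a local fold of at least 8 another 8 did. No region was in both sets. The 9 had local folds of 4.16 to 6.28, close to the calling minimum of 4, and the 8 had normalised tag counts of 7.56 to 15.1.

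SLC6A6, the taurine carrier, was the one member with a control-only region (1.34% of protein-coding genes had one), and it had tazemetostat-only regions as well. The region 942 bp past its start, chr3:14403281-14403816, had 14.5 and 23.5 in the controls and no peak under tazemetostat. Its local folds were 4.32 and 4.16, close to the calling minimum. The promoter region just upstream had a peak of 26.7 in tazemetostat replicate 1 alone. Tazemetostat-only regions lay 20.7 kb past the start (18.6 and 14.3) and 10.2 kb upstream (16.1 and 11.3), and the second of these crosses the edge of the window. The shared intron region 16.4 kb past the start had 19.2 and 24.4 against 27.2 and 20.3, which overlapped. With an equal number of peaks SLC1A2 and SLC7A1 also had a control-only region. Both of these regions had a peak in every deposited list, and their tazemetostat peaks were removed by the cut. The share of protein-coding genes with a control-only region was not counted for that setting.

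The 32 member regions with exactly 1 peak in each library gave values that could be tested. limma called 9 of them higher under tazemetostat at an adjusted p under 0.05 (28.1%, against 42.7% of the 15383 regions of the genome) and 0 lower (0.247% of the genome, and 1 member lower at an unadjusted p under 0.05). Both tazemetostat values lay above both controls in 25 of the 32 (81.6% over the genome) and below in 1 (1.75%). The median difference was 0.64, against 0.70 over all regions. The 9 calls became 5 of 51 without control replicate 1 (9.80%, against 13.3% of the genome), 14 of 39 without control replicate 2 (35.9%, against 49.5%) and 0 without either tazemetostat library, where no region of the genome was called. Where each library was centred on its median, no region of the genome was called in either direction, the member median became -0.12 and that of all regions -0.06, and 23 of the 32 member differences were below 0. At an unadjusted p under 0.05 that centred fit had 0 member regions higher and 5 lower (3.04% and 7.72% over the genome). A rise of a member region under tazemetostat is therefore a rise in the deposited scale, in which nearly all regions rose (95.4% of fitted differences were above 0).

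The 3 largest rises were at SLC38A11, SLC38A7 and SLC1A5. The SLC38A11 region, in an intron 17.4 kb past the start and at the start of another transcript, had 11.1 and 13.9 in the controls and 36.3 and 24.1 under tazemetostat, 2.42 times higher in the mean (1.19 ± 0.309, SE, adjusted p = 0.0123). SLC38A7 was described with the promoters. The region 23.6 kb past the SLC1A5 start, in the flank beyond the gene, had 17.5 and 23.5 against 46.4 and 44.4, 2.21 times higher (1.12 ± 0.299, adjusted p = 0.0131). In all of these the groups were clear of each other, and none passed the threshold after centring, with adjusted p of 0.581, 0.593 and 0.611.

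The other calls were the SLC38A5 promoter, a region upstream of SLC7A13 (12.2 and 21.0 against 31.2 and 34.3, difference 0.98), regions 42.4 kb past and 6.80 kb upstream of the SLC1A4 start (18.0 and 23.1 against 40.3 and 36.1, and 18.6 and 28.2 against 46.4 and 35.0), an intron region of SLC1A2 (20.9 and 20.6 against 42.3 and 34.6) and an intron region of SLC38A8 (42.5 and 52.5 against 91.7 and 70.4). By family, limma called 4 of 8 tested regions higher in SLC1, 1 of 10 in SLC7 and 4 of 10 in SLC38 (42.7% over the genome). It called 0 of 4 in SLC36, SLC43 and SLC6A6 together. Fitted differences were above 0 in 6 of 8, 9 of 10 and 10 of 10 regions of SLC1, SLC7 and SLC38. They were also above 0 in all 4 others (95.4% over the genome). Per kb of peak 6 member regions were called (32.9% over the genome), of which 2 were among the 9, the intron region of SLC38A11 and the flank of SLC1A5. The other 7 calls were lost, and the promoters of SLC7A2 and SLC7A5, an intron region of SLC38A2 and a region 122 kb past the SLC38A6 start were gained, so that SLC1 had 1, SLC7 had 2 and SLC38 had 3.

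The 3 lowest differences were at SLC7A1, SLC1A4 and SLC1A2. The intron region of SLC7A1 at 23.7 kb past the start had 14.5 and 22.3 in the controls and 9.57 and 12.4 under tazemetostat, below both controls, with a difference of -0.68 ± 0.310 (adjusted p = 0.0748). It was the one tested member region in which both tazemetostat values were lower. The SLC1A4 promoter followed at -0.14, and an intron region of SLC1A2 with 8.73 and 12.2 against 8.57 and 10.5 gave -0.11 ± 0.303 (adjusted p = 0.742). Per kb of peak both of these turned positive, at 0.39 and 0.17, while the SLC7A1 region stayed at -0.32. The peaks of the tested member regions had median lengths of 466.5 and 539 bp in the controls and 599.5 and 607.5 bp under tazemetostat, and per kb the member median was 0.35.

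**Figure D5:**
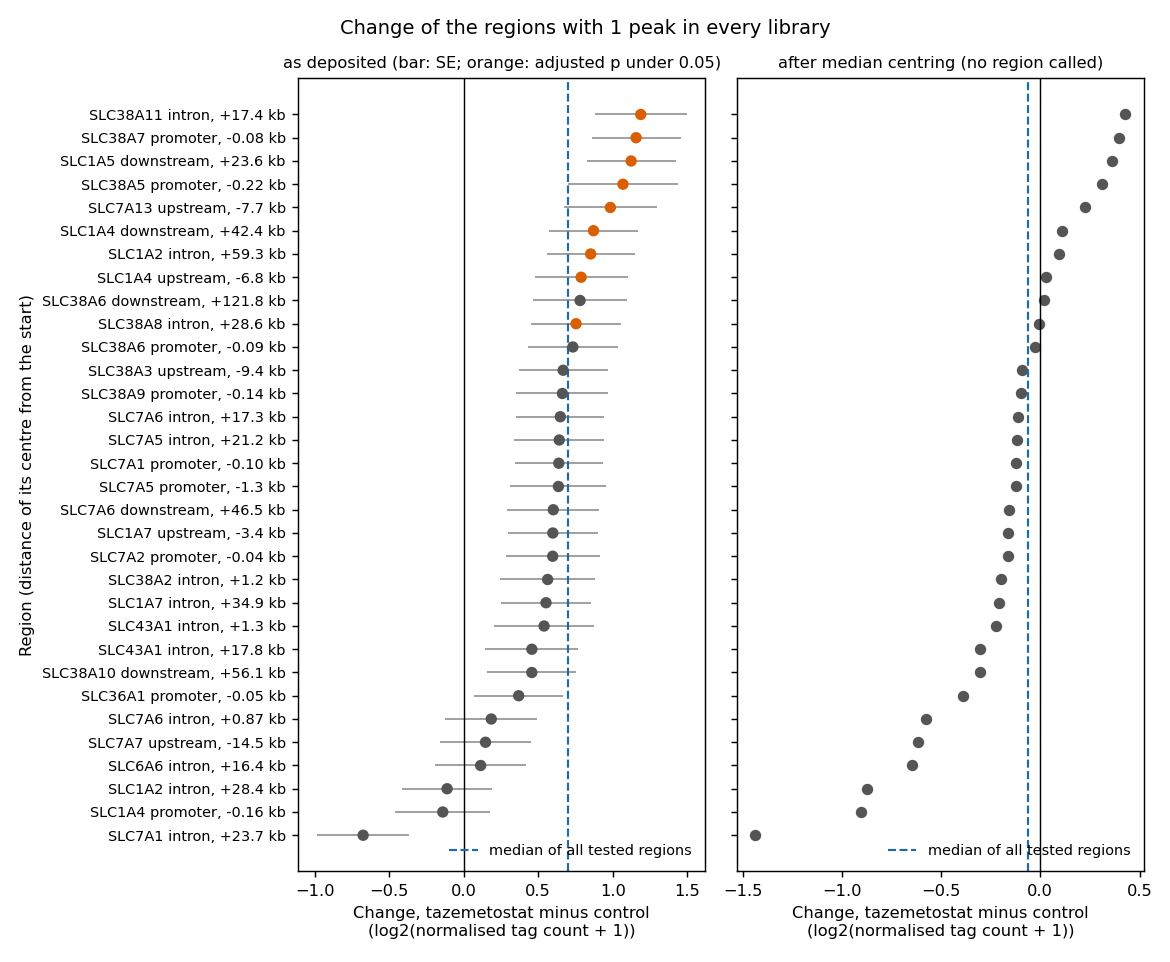
Difference of each of the 32 tested member regions, tazemetostat minus control, on the log2(normalised tag count + 1) scale, with SE bars for the deposited scale (left) and after median centring (right). On the left 9 orange regions pass the threshold and 3 lie below 0, and on the right none passes and 23 lie below 0.

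Position and base composition are given for the classes of region as a description. Of the tazemetostat-only member regions, 17 of 31 lay in introns of the canonical transcript, 5 in promoters, 6 further upstream and 3 beyond the transcript end. Of the shared regions 13 of 33 lay in introns and 9 in promoters. Some of the other shared regions overlapped promoters of neighbouring coding genes. These included PRMT7 and SLC7A6OS at SLC7A6, OXA1L and MRPL52 at SLC7A7, and NDUFAF8 and TEPSIN at SLC38A10. SLC7A7 and SLC38A10 had no shared region besides these. All but the OXA1L region were among the regions tested with limma. The median GC content of the central 200 bp was 49.0% for tazemetostat-only and 58.0% for shared member regions, against 50.5% and 55.0% over the genome. The median normalised tag count under tazemetostat was 12.4 for tazemetostat-only and 36.3 for shared member regions (10.7 and 31.0 over the genome).

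Motif letters were searched on both strands. The E-box CACGTG stood in the central 200 bp of 7 of the 169 member regions (4.14%, against 3.68% of all). By class, it stood in 4 of 33 shared member regions (12.1%), and of 4.03% of shared regions of the genome. These were the promoters of SLC7A2, SLC38A5, SLC38A7 and SLC36A1, and the last holds 2 copies, both printed above. Among tazemetostat-only regions 1 of 31 held it (3.23%, against 3.44%), the SLC43A1 promoter. The amino acid response element TGATGNAA stood in 7 of the 169 member regions (4.14%, against 3.13% of all), among them the shared SLC1A2 intron region with a difference of -0.11 and the tazemetostat-only region at SLC38A9. The HNF4 letters CAAAGTNCA stood in 6 (3.55%, against 3.30%), none of them shared or tazemetostat-only. FOXA letters (TGTTTAC) stood in 8 member regions (4.73%, against 6.50%) and the antioxidant response core TGACNNNGC in 16 (9.47%, against 10.2%), while the HNF1 and CEBP (TTGCGCAA) letters were in 0. In the RefSeq promoters of 300 bases, available for 30 of the members, the amino acid response element was in 5 of 50 entries (10.0%, against 3.62% of 35116 entries), at SLC1A3, SLC1A4, SLC1A5, SLC38A1 and SLC7A1. The E-box was in 9 of these 50 entries (18.0%, against 7.26%). Such matches describe letters and not binding.

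Other genes of amino acid handling were counted in the same way. Of 22 other amino acid carriers, 4 had a tazemetostat-only region (18.2% against 32.5% of protein-coding genes), namely SLC16A10, an aromatic amino acid carrier, SLC25A13 and SLC25A38 of the mitochondrial inner membrane, and CTNS, the lysosomal cystine exporter. The highest was at SLC25A38, with 21.2 and 17.3. SLC25A13 had 3 such regions, between 6.02 and 12.4. Of their 23 tested regions limma called 11 higher (47.8%, against 42.7% of the genome) and 0 lower, with a median difference of 0.74 against 0.70 over all regions. Of 22 genes that sense amino acids for mTORC1 or GCN2, 7 had a tazemetostat-only region (31.8%), namely SESN3, SAMTOR (listed as BMT2), RRAGC, LAMTOR5, MTOR, RPTOR and EIF2AK4, with values from 5.65 at RRAGC to 16.1 at EIF2AK4. Their promoters were open in all libraries at 14 of 22 genes (30.6% of protein-coding genes), and 16 of 31 tested regions were called higher (51.6%, against 42.7% of the genome) and 0 lower, with a median of 0.74. No gene of either list had a control-only region.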

How the data were processed

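ATAC-seq libraries of HepG2 cells, 2 control and 2 tazemetostat, were grouped by the sample titles and labels. Trimming (Trim Galore 0.6.6), alignment to hg38 (Bowtie2 2.3.5.1) and peak calling in each library without pooling (HOMER 4.11.1) were done by the authors. The normalised tag counts, as deposited, are a signal scaled to 10 M mapped tags. The deposited fold over the local background is a ratio, and it was used to filter peaks. The deposited score, p-value and clonal fold were not used for tests. The headers state a false discovery rate of 0.001 and the methods one of 0.05, and the fragment length per the headers was 200 bp in the controls and 144 bp under tazemetostat, which cannot be told apart from the treatment. A list holds no value where no peak was called.

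Peaks were joined across libraries at 1 bp of overlap and assigned to gene windows with GENCODE release 44. Values per library entered an exact permutation test, two-sided. Regions with exactly 1 peak per library were tested with limma 3.58.1 in R 4.3.3 on log2(normalised tag count + 1) without a block, with Benjamini-Hochberg adjustment over all of them at 0.05. That scale understates changes of low values, and a difference of 1 is about 2-fold only for high ones. If the replicates are technical, p-values measure only the spread between such libraries. Joining, fitting and motif search were tested on simulated data. Members, lists and motifs were chosen with earlier results of these data known. All members were named, with values in every library for promoter regions called throughout, for each tazemetostat-only or control-only region, and for the 3 largest rises and 3 lowest differences. Motif sites and further regions given in the text were chosen after their values were seen. The alternatives were a local fold of at least 8, an equal number of peaks, gene bodies alone, another overlap, pseudocount, filter and scaling, a replicate block and each library left out. Quantile normalisation was added after the data were seen. The annotation of 1 flank is not reported here.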

Additional observations from a re-analysis of the deposited data

How the results depend on the processing

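The count of members with a tazemetostat-only region moved from 20 to 7 with a local fold of at least 8 and to 9 with an equal number of peaks. Of these 7 and 9 members, 6 and 8 were among the 20. SLC7A5 entered the first set and SLC7A13 the second, each through a region with a control peak in the deposited lists. Leaving out 1 library gave 22 to 29, since the class then needs fewer calls. Member regions called higher numbered 9, and 2 of 3 with a local fold of at least 8 (56.4% of the genome in that setting). They numbered 0 after median centring and 0 after quantile normalisation, where no region of the genome was called higher. Leaving out 1 library gave 0 to 14: 5 without control replicate 1, 14 without control replicate 2 and 0 without either tazemetostat library, where the lone library was taken to vary like the other group and no region of the genome was called. The median member difference of 0.64 became 0.85 with a local fold of at least 8, 0.35 per kb of peak, -0.12 after median centring and -0.0655 after quantile normalisation, and 0.51 to 0.75 with 1 library left out. The SLC1A4 promoter (0.39) and the SLC1A2 intron region (0.17) turned positive per kb. With the replicate block 7 of the 32 member regions were called higher (21.9%, against 32.8% of the genome) and 0 lower (27 of 15383 in the genome). The replicate numbers did not pair the samples (r = -0.00246 between the replicate differences of the groups). Per kb of peak 6 member regions were called higher (18.8%, against 32.9% of the genome), but only 2 of them were among the 9. The differences of 58 peaks and of 7.5 promoters shrank to 13.5 and 1.5 with a local fold of at least 8 and to 13.5 and 3.5 with an equal number of peaks. The remaining settings kept these 4 counts within 1.5 times, and 0 member regions were called lower in any setting run. The cause of these shifts was not tested. The 3 planned count models were not run, because the deposited values could not be turned back into whole reads by the rule used here.

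Depth of 17.2 to 26.6 M tags and 2 libraries per group limit these results. A missing peak is not a measured absence of signal. Peak number, tags in peaks, fragment length setting and, as far as the methods state, the DNase I step cannot be told apart from the treatment.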
